A study of Mus musculus with 2 samples.

Results

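Among the low pigment cells of a sorted melanoma culture, 55 carried the cluster numbers that mostly hold high pigment cells. They were chosen as the cells whose sort was low pigment and whose cluster in the authors' deposited cell table was 0 or 3. They made up 55 of 1900 low pigment cells (2.89%, exact Clopper-Pearson 95% interval 2.19% to 3.75%), out of 4036 cells in the table. Of the 55, 36 were in cluster 0 and 19 in cluster 3, where low pigment cells were 2.31% and 3.51% of all cells. The cells came from B16 F10, a mouse melanoma line that makes melanin and that the labels describe as melanocytes. It was grown in DMEM of high glucose content plus 10% fetal bovine serum, seeded at 100 cells per cm2, harvested with trypsin on day 7 and sorted by side scatter, a measure of granularity that stood for pigment. Both sorts had the same culture conditions, no genotype or drug differed between them, and each gave 1 library, made with the 3' v3.1 droplet kit of 10x Genomics. The comparison groups were the 1845 low pigment cells of clusters 1 and 2, called here the other low pigment cells, and the 2043 high pigment cells of clusters 0 and 3, called here the high pigment cells.

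Melanin is made in melanosomes by the enzymes tyrosinase, Tyrp1 and Dct, on a fibrous scaffold formed by Pmel. The genes for these proteins are switched on by MITF, the master transcription factor of the melanocyte lineage, together with SOX10. Immediate early genes such as Jun and Fos encode transcription factors and signalling regulators whose transcripts appear within minutes of a stimulus.

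All values are descriptions. The cluster numbers were made from the same transcripts, a cell is not a replicate, and 1 library per sort leaves sort and library unable to be told apart, so no test was made. Transcript molecules, counted by their unique molecular identifiers (UMIs), were summed over the cells of a group and scaled by the group's total to counts per 1000000 UMIs (CPM). Exact Poisson 95% intervals of CPM and exact binomial 95% intervals of ratios cover counting error only, not differences between cells, sorts or cultures. The 55 cells held 870395 UMIs with a median of 15138 per cell (8046 to 32826). The other low pigment cells held 31566799 UMIs with a median of 16030, and the high pigment cells held 27790207 with a median of 12633. The limit of detection was taken as 3 UMIs, or 3.45 CPM in the 55 cells, as a guide only, and no count was left out by it. Mitochondrial transcripts made 5.93% of UMIs in the median of the 55 cells, 5.61% in the other low pigment cells and 5.06% in the high pigment cells. Only 2 barcode sequences occurred in both libraries. None was a cell of the table in both, and none belonged to the 55 cells. Scrublet marked 18 low pigment and 15 high pigment cells as doublets, and 0 of the 55.

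The 3 genes given as markers of the high pigment clusters did not place the 55 cells in the same way. Lgals3, which encodes the sugar-binding lectin galectin-3, had 718 CPM (663 to 777) in the 55 cells, 289 CPM in the other low pigment cells and 704 CPM in the high pigment cells. The ratio was 2.48 (2.28 to 2.69) to the other low pigment cells and 1.02 (0.940 to 1.10) to the high pigment cells. Mitf had 301 CPM (266 to 340) in the 55 cells, against 219 and 510 CPM. It was 1.37-fold (1.21 to 1.55) above the other low pigment cells and 1.70-fold (1.5 to 1.92) below the high pigment cells. Jun, an AP-1 transcription factor that is low in the high pigment clusters, had 531 CPM (483 to 581), against 851 and 111 CPM. It was 1.60-fold (1.46 to 1.76) below the other low pigment cells and 4.77-fold (4.32 to 5.26) above the high pigment cells. By Lgals3 the 55 cells therefore stood at the level of the high pigment cells, and by Mitf and Jun they stood between both groups, on the log scale nearer to the other low pigment cells. They are named here by their sort and cluster only. Where a pair of values follows the word against, the first is that of the other low pigment cells and the second that of the high pigment cells. On mm10, Lgals3 lies on chr14:47367751-47386160, Mitf on chr6:97807052-98021349 and Jun on chr4:95049034-95052222.

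Across all genes, those whose CPM averaged 50 or more over the groups compared were taken as measured, and a gene was called at a ratio of 1.5 by size alone. Against the other low pigment cells, 37 of 3057 measured genes were higher (1.21%) and 68 were lower (2.22%), together 3.43%. Against the high pigment cells, 69 of 2982 were higher (2.31%) and 75 were lower (2.52%), together 4.83%. Both comparisons share the 55 cells, so their counts are not independent. Counting error alone spanned a factor of 1.24 on each side of the ratio for the median gene in the first comparison and 1.23 in the second. The high pigment cells differed from the other low pigment cells in more genes, with 82 of 3044 higher (2.69%) and 127 lower (4.17%), together 6.87%.

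**Figure D1:**
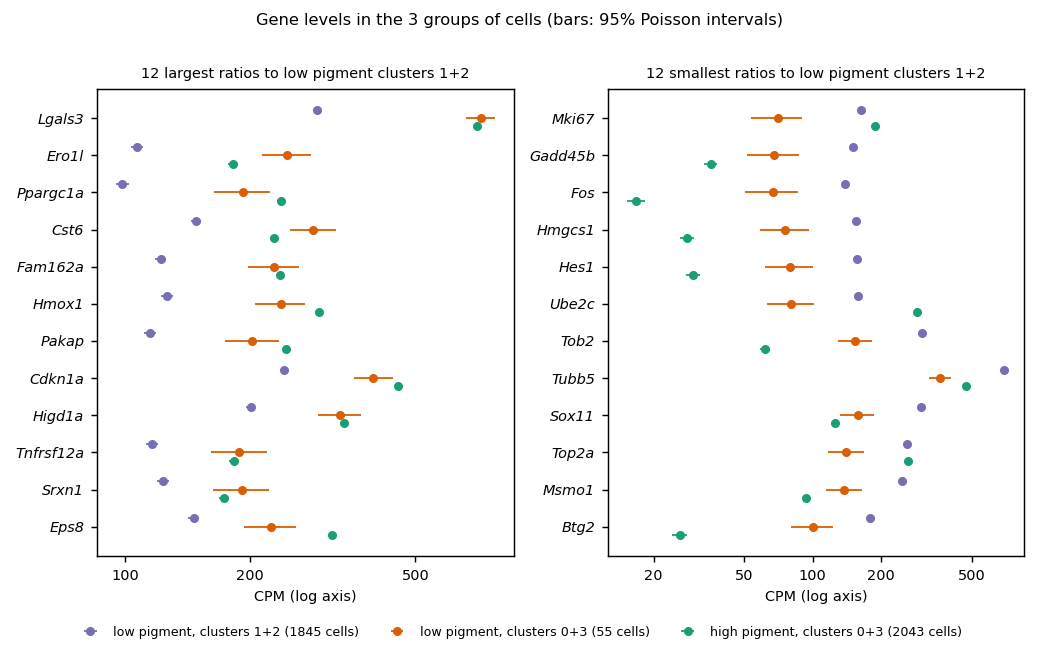
CPM on a log axis of the 12 genes furthest above (left) and the 12 furthest below (right) the other low pigment cells (violet) in the 55 cells (orange), with the high pigment cells in green and 95% Poisson intervals as bars. Lgals3 reached 718 CPM in the 55 cells and 704 CPM in the high pigment cells, and Fos lay at 66.6 CPM between 139 and 16.7 CPM.

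Lgals3 headed the genes furthest above the other low pigment cells, followed by Ero1l and Ppargc1a. Ero1l, an oxidase that drives disulfide bond formation in the endoplasmic reticulum, had 245 CPM against 107 in the other low pigment cells, a ratio of 2.29 (1.99 to 2.63), and 182 in the high pigment cells. Ppargc1a, the coactivator PGC-1 alpha that drives mitochondrial biogenesis, had 192 CPM against 98.4 and 237, a ratio of 1.95 (1.66 to 2.28) to the other low pigment cells. Hmox1, which degrades haem, had 237 CPM against 126 and 294. The cell cycle inhibitor Cdkn1a, a p53 target, had 396 CPM against 242 and 454. The mitochondrial proteins Fam162a and Higd1a had 229 and 329 CPM, against 122 and 201 CPM in the other low pigment cells and 236 and 337 CPM in the high pigment cells. Cst6, a cysteine protease inhibitor, had 284 CPM and lay above both groups, which had 148 and 228 CPM. The remaining genes of the 12 were Pakap, Tnfrsf12a, Srxn1 and Eps8, with ratios of 1.76, 1.62, 1.55 and 1.53.

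Several of these sums rested on few cells. The cell with the most UMIs of the gene held 23.5% of the Ero1l UMIs of the 55 cells, 17.8% of Cst6, 17.1% of Fam162a, 17.0% of Hmox1 and 11.5% of Lgals3. Leaving out, for each gene, the 5 cells with the most of its UMIs gave ratios to the other low pigment cells of 1.74 for Lgals3, 1.45 for Ppargc1a, 1.27 for Cdkn1a, 1.24 for Ero1l, 1.21 for Cst6, 1.16 for Higd1a, 1.13 for Hmox1 and 0.999 for Fam162a. This trims the 55 cells on 1 side only, so it lowers every such ratio by construction, and of these genes Lgals3 alone stayed above 1.5. The ratio of Cst6 to the high pigment cells was 0.787 after the same trimming.

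Most immediate early genes stood between both comparison groups, as did 8 of the 10 measured in both comparisons. Of 24 listed genes, 16 were measured against the other low pigment cells: 6 were lower and 0 higher. Over all measured genes 2.22% were lower. The log2 ratio of the median member was -0.44, where the median over all measured genes was -0.02. Against the high pigment cells 10 were measured, 9 were higher and 0 lower, and the log2 ratio of the median member was 1.58, where the median over all measured genes was again -0.02. A gene near 0 in the high pigment cells could pass the filter only through the 55 cells, so these 10 are not the whole list. Over all measured genes 2.31% were higher than in the high pigment cells. The clusters differed against the low pigment cells. Cluster 0 had 5 of 16 measured genes lower and 0 higher than low pigment cluster 2. Cluster 3 had 4 of 16 lower and 3 higher than low pigment cluster 1, where 317 of 3162 measured genes were higher. Fos had 66.6 CPM (50.6 to 86.1) in the 55 cells, 139 in the other low pigment cells and 16.7 in the high pigment cells. The phosphatase gene Dusp1, whose product switches off MAP kinases, had 96.5 CPM against 171 and 18. The antiproliferative gene Btg2 had 100 CPM against 178 and 26.0, and the nuclear receptor Nr4a1 had 155 CPM against 210 and 37.6. Nr4a2, of the same receptor family, had 195 CPM against 269 and 54.8. Junb and Atf3 were close to the other low pigment cells, with 93.1 and 79.3 CPM, where those had 98.3 and 68.8. Jund had 326 CPM against 348 and 141, but its clusters lay on opposite sides of the other low pigment cells. It had 228 CPM in cluster 0, a ratio of 0.697 (0.585 to 0.825) to low pigment cluster 2, and 556 CPM in cluster 3, a ratio of 1.5 (1.27 to 1.77) to low pigment cluster 1. Klf6 and Ier3 lay above both groups, with 134 and 177 CPM, against 102 and 145 in the other low pigment cells and 89.9 and 96.5 in the high pigment cells.

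**Figure D2:**
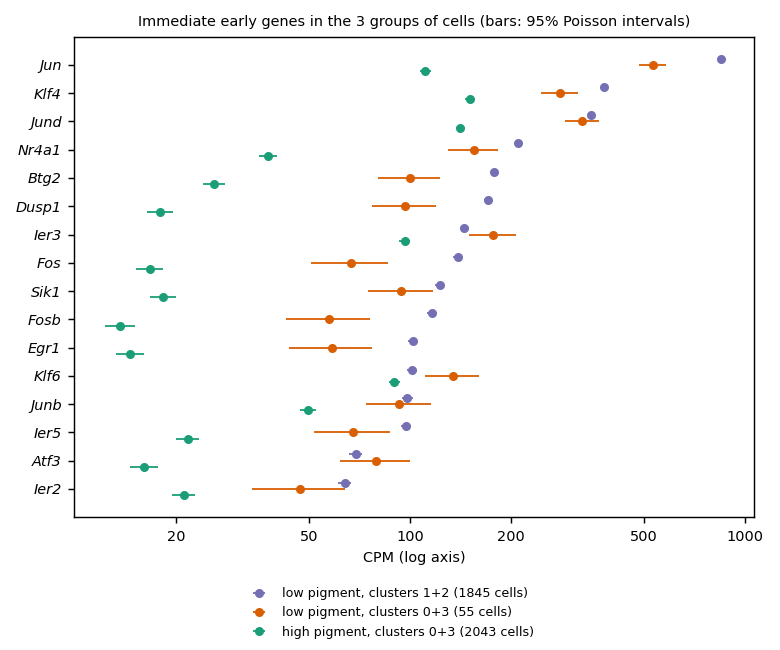
CPM on a log axis of the 16 immediate early genes measured against the other low pigment cells, for the 55 cells (orange), the other low pigment cells (violet) and the high pigment cells (green), with 95% Poisson intervals as bars. Jun lay at 531 CPM between 851 and 111 CPM, and Klf6 at 134 CPM lay above both groups.

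The 250 bases before the start of 3 genes are shown because they hold TGACGTCA, the cAMP response element, in capitals. They were picked after a search: 9 motifs were looked for, on both strands, in the RefSeq promoters of 17 of the named genes, of which 13 had an entry, and these 3 genes were the ones with TGACGTCA. The element is its own reverse complement. It occurred in 1.79% of the 32851 promoter windows, which run to 50 bases after the start. The E-box CACGTG occurred in 7.15% of windows and the variant CATGTG in 14.2%. TGACG, which overlaps the element, occurred in 20.8%, and the AP-1 site TGACTCA in 5.20%. The serum response element occurred in 1.63%. ACGTG, which overlaps the E-box, occurred in 19.6%, then GCGTG in 32.4% and TCACNCCAC in 1.24%. Sequences are RefSeq's, build GRCm38.p6, 5′ to 3′ on the gene's strand, and say nothing on whether a factor was bound.
Btg2, chr1:134079156-134079405, minus strand: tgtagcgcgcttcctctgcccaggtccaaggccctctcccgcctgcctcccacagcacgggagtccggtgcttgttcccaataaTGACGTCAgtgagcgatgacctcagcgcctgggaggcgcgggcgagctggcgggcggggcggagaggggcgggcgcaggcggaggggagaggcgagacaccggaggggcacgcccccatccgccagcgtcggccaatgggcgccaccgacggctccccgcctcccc
Dusp1, chr17:26508473-26508722, minus strand: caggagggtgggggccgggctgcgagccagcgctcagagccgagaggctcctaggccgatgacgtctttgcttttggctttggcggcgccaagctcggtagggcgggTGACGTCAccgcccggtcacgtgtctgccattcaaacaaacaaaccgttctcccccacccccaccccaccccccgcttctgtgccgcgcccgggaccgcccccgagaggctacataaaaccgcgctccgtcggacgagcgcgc
Mitf, chr6:97991533-97991782, plus strand: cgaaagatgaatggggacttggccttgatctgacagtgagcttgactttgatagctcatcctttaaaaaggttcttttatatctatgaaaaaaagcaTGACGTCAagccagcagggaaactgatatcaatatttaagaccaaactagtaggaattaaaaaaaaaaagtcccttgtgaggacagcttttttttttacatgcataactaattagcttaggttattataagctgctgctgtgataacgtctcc
The element began 166 bases before the start of Btg2, 143 before Dusp1 and 153 before Mitf, where 1 of 3 windows of the gene held it. Of the 16 measured immediate early genes, 13 had a promoter entry and 2 of these, Btg2 and Dusp1, held the element. Of the 12 genes with the largest ratio to the other low pigment cells, 8 had an entry and 0 held it. The AP-1 site TGACTCA and the serum response element were found in 0 of the 13 immediate early genes.

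Single cells spread across both comparison groups. Every cell was thinned to 7500 UMIs, and the share of its UMIs from the immediate early list was 0.227% in the median of the 55 cells (0.0267% to 0.720%), 0.333% in the median other low pigment cell and 0.0800% in the median high pigment cell. Of the 55, 12 were above the median of the other low pigment cells and 49 above the median of the high pigment cells. By quartiles, 24 were at or above the lower quartile of the other low pigment cells (0.253%), 9 at or below the upper quartile of the high pigment cells (0.120%), and 22 in between. Thinned Jun had a median of 3 UMIs per cell (0 to 16), against 6 and 0. Thinned Lgals3 had a median of 4 UMIs (0 to 30), against 1 and 4. Thinned Mitf had a median of 1 UMI (0 to 9), against 1 and 3. Some cells had both high Lgals3 and a high immediate early share, about as often as over all 55 cells. Of the 22 cells above the high pigment median of Lgals3, 10 had an immediate early share at or above the lower quartile of the other low pigment cells. In 2 of the 22 it was at or below the upper quartile of the high pigment cells. Over all 55 cells these counts were 24 and 9.

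In larger gene sets the 55 cells also lay between both groups. They were chosen by sort and by clusters made from these genes, so this position is no independent support. The 30 genes highest and the 30 lowest in the high pigment cells relative to the other low pigment cells were picked from those groups alone, although the clusters themselves rest on every gene. In the 55 cells, 25 of the 30 high genes and 30 of the 30 low genes lay between both groups. Among all genes called between the comparison groups and measured in every comparison, 62 of 73 higher and 89 of 98 lower in the high pigment cells did so. The share of UMIs per cell from the 30 high genes was 0.760% in the median of the 55 cells (0.387% to 1.72%), against 0.547% and 1.01%. It was above the median of the other low pigment cells in 51 of the 55 and above the median of the high pigment cells in 9. The share from the 30 low genes was 0.733% (0.427% to 1.23%), against 1.03% and 0.467%. It was above the median of the other low pigment cells in 4 of the 55 and above the median of the high pigment cells in 52.

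**Figure D3:**
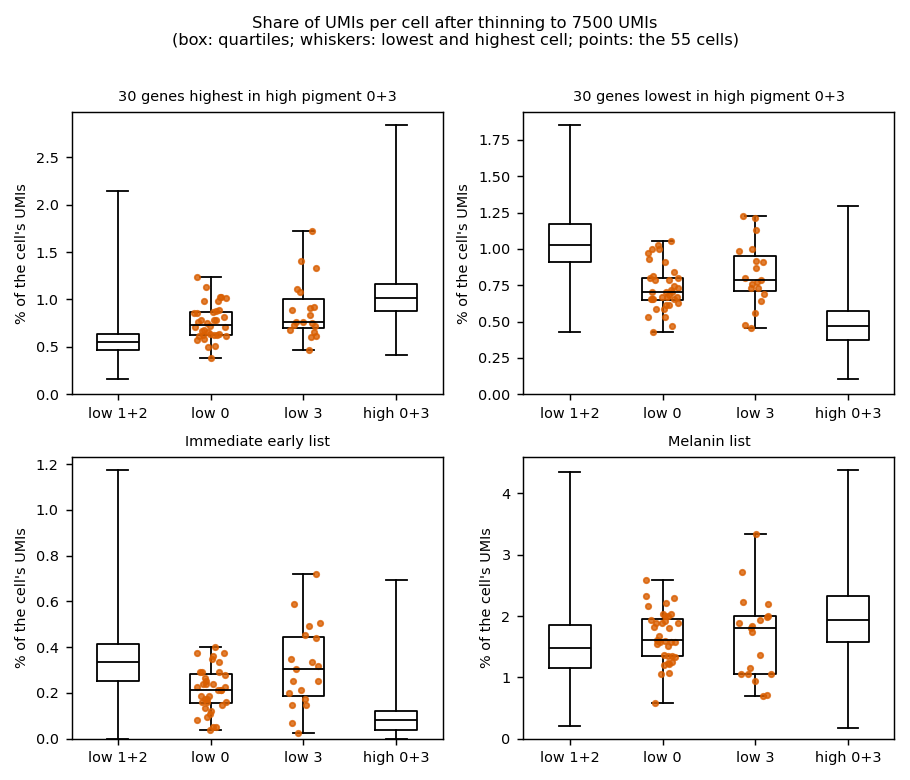
Percent of each cell's UMIs from 4 gene sets after thinning to 7500 UMIs, for the other low pigment cells, the 55 cells by cluster (orange points) and the high pigment cells; boxes are quartiles and whiskers the lowest and highest cell. Of the 55 cells, 51 were above the median of the other low pigment cells for the 30 high genes, and 12 were above it for the immediate early list.

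Few pigment genes passed the ratio of 1.5, while their sum lay between both groups. The 17 genes of the melanin list summed to 16646.5 CPM (16376.5 to 16919.8) in the 55 cells, against 15011.7 and 19390.2. Of these genes, 13 were measured. Between the comparison groups themselves, 2 of 13 were higher in the high pigment cells and 0 lower. Over all measured genes, 1.21% were higher than in the other low pigment cells and 2.52% lower than in the high pigment cells. Against the other low pigment cells 1 was higher and 0 lower, and the median member stood at 0.15 on the log2 scale, and against the high pigment cells 0 were higher and 1 was lower, with a median of -0.23. Dct had 6405 CPM (6238 to 6576) in the 55 cells, 5841 in the other low pigment cells and 8059 in the high pigment cells. Tyrp1 had 1961 CPM against 1829 and 2299, and Mlana, a melanosome protein, 1843 CPM against 1652 and 2315. Tyr, the rate-limiting enzyme, had 139 CPM against 125 and 121, and Pmel 1309 CPM against 1436 and 1275. The called genes were Slc7a11, the cystine transporter, with 151 CPM against 99.2 and 148, and Cited1, a transcription cofactor, with 96.5 CPM against 124 and 153. Per thinned cell the melanin list made 1.68% of UMIs in the median of the 55 cells (0.587% to 3.33%), against 1.48% and 1.93%. Among 4 measured lineage transcription factors, none was called against the other low pigment cells, and Mitf and Sox10 were called lower than in the high pigment cells. Sox10 had 146 CPM against 117 and 226, and Pax3 had 238 CPM against 308 and 269.

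Mitotic transcripts were lower than in both groups. Of the G2 and M phase list, 10 of 24 measured genes were lower than in the other low pigment cells and 0 higher, the median member standing at -0.53 (log2 ratio). Against the high pigment cells 16 of 27 were lower and 0 higher, the median member standing at -0.84. Over all measured genes, 2.22% were lower in the first comparison and 2.52% in the second. The proliferation marker Mki67 had 70.1 CPM (53.6 to 90.0), against 164 and 188. The ubiquitin-conjugating enzyme Ube2c, which acts in mitotic exit, had 80.4 CPM against 158 and 289, and the DNA topoisomerase Top2a had 140 CPM against 258 and 263. The tubulin gene Tubb5 had 362 CPM against 694 and 472. Of the S phase list, 0 of 22 genes were called against the other low pigment cells. Against the high pigment cells 3 of 18 were higher, where 2.31% of all measured genes were. The authors' phase calls rest on the same transcripts, so they are no independent support for these list results. G2 and M phase took 6 of the 55 cells (10.9%, 4.11% to 22.2%), 23.8% of the other low pigment cells and 43.9% of the high pigment cells. S phase took 40.0%, 37.0% and 22.7%, and G1 phase 49.1%, 39.1% and 33.4%. With high pigment cells weighted to the phase shares of the 55, the median of the mitotic list against them was -0.38 in place of -0.84. The same weighting gave 47 genes lower than in the high pigment cells in place of 75, and a log2 ratio of Lgals3 to them of -0.15 in place of 0.03. It gave -0.30 in place of -0.53 for the mitotic list against the other low pigment cells. The immediate early list stood at -0.47 and 1.41 with this weighting, and the cholesterol list at -0.53 and 0.51.

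Against the high pigment cells, the 10 genes with the largest ratio at a mean CPM of at least 100 included the immediate early genes Jun, Jund, Klf4 and Ier3, with Nr4a2 and Tob2. The cyclin gene Ccnd1, whose product drives entry into S phase, had 248 CPM (216 to 284) in the 55 cells, 206 in the other low pigment cells and 152 in the high pigment cells. The histone gene Hist1h2bc had 196 CPM against 151 and 116, with 402 CPM in cluster 3 and 108 in cluster 0. Pnrc1, a nuclear receptor coactivator, had 141 CPM against 199 and 71.9. Among the 10 genes with the smallest ratio, 8 were mitotic genes, and the others were Map7d2 and Tnrc6a. Map7d2, a microtubule-associated protein, had 71.2 CPM (54.6 to 91.3) in the 55 cells, 71.9 in the other low pigment cells and 158 in the high pigment cells. Tnrc6a, a protein of microRNA silencing complexes, had 72.4 CPM (55.6 to 92.6), against 55.9 and 141. In both genes the 55 cells stood at or near the level of the other low pigment cells.

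Sterol synthesis genes again lay between the groups. Of 14 measured genes of the cholesterol list, 6 were lower and 0 higher than in the other low pigment cells, and the median member stood at -0.56 (log2 ratio). Of 10 measured against the high pigment cells, 4 were higher and 0 lower, and the median member stood at 0.48. Over all measured genes, 2.22% were lower than in the other low pigment cells and 2.31% higher than in the high pigment cells. Hmgcs1, which makes HMG-CoA for sterol synthesis, had 75.8 CPM (58.6 to 96.5), against 155 and 28.1. Msmo1, a later enzyme of the pathway, had 138 CPM against 248 and 93.1. Outside this list, the Notch target Hes1 had 79.3 CPM against 156 and 29.8, and the antiproliferative gene Tob2 had 154 CPM against 301 and 61.6.

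Of the hypoxia list, 3 of 7 measured genes were higher than in the other low pigment cells, Bnip3, Ero1l and Higd1a, and 0 were lower, with a list median of 0.26. Against the high pigment cells, 1 of 5, Bnip3, was higher, with a median of -0.04. For this and the following lists, 1.21% of all measured genes were higher and 2.22% lower than in the other low pigment cells. Against the high pigment cells these shares were 2.31% and 2.52%. Cluster 3 alone had 6 of 8 measured genes higher than low pigment cluster 1. Cluster 0 alone had 0 of 5 higher and 1 lower than low pigment cluster 2. Over all measured genes, cluster 3 had 317 of 3162 higher and 162 lower, and cluster 0 had 50 of 3054 higher and 165 lower. A gene high in cluster 3 alone could pass the CPM minimum only there, so the 8 and the 5 genes are not the same set. Of 8 measured p53 targets, 2 were higher than in the other low pigment cells, Cdkn1a and Plk2, with a list median of 0.35, and 1, Plk2, was higher than in the high pigment cells. Plk2, a kinase, had 95.4 CPM against 52.4 and 40.3. Of 20 measured NRF2 targets, 2 were higher than in the other low pigment cells, Hmox1 and Srxn1, and Gclm, a subunit of the enzyme of glutathione synthesis, was lower than in the high pigment cells with 316 against 487 CPM. Of 15 measured genes of the unfolded protein response, 2 were lower than in the other low pigment cells, the endoplasmic reticulum proteins Creld2 and Pdia6. Nuclear genes of oxidative phosphorylation had 0 of 38 called in either comparison, with medians of 0.11 and 0.01. The 13 mitochondrially encoded genes also had 0 called, with medians of 0.01 and 0.28.

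**Figure D4:**
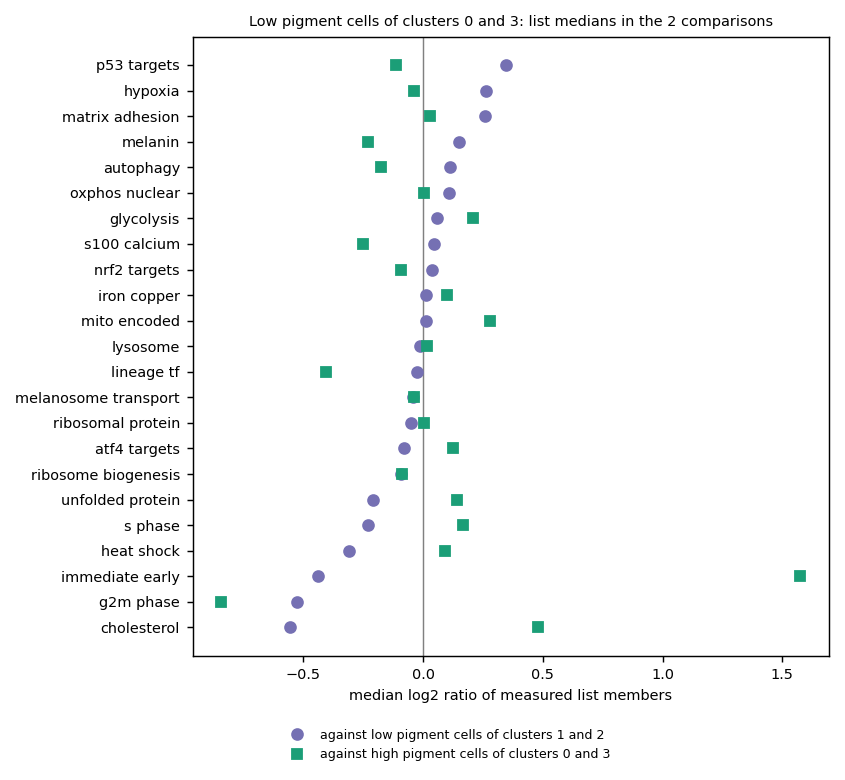
Median log2 ratio of the measured members of each gene list for the 55 cells against the other low pigment cells (violet circles) and against the high pigment cells (green squares). The immediate early list stood at -0.44 and 1.58, and the cholesterol list at -0.56 and 0.48.

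The 36 cells of cluster 0 and the 19 of cluster 3 differed in several of these genes. All 19 cells of cluster 3 were called G1 phase, while cluster 0 had 22 cells in S phase, 8 in G1 phase and 6 in G2 and M phase. Ero1l had 502 CPM in cluster 3 and 135 in cluster 0, Fam162a had 517 and 105, Higd1a had 513 and 249, and Bnip3, a mitophagy receptor induced by low oxygen, had 192 and 18. In the high pigment cells of clusters 3 and 0, Ero1l had 199 and 178 CPM. The hypoxia list took 0.0800% of UMIs in the median of the 55 thinned cells, against 0.0667% and 0.0667%. Of the 55, 28 were above the median of either group. The 5 highest of the 55, with 1.03%, 0.613%, 0.493%, 0.307% and 0.213%, were all in cluster 3. Such cells also occurred in the comparison groups, whose highest cells had 0.653% and 1.29%. The top 5 cells held 50.7% of the Ero1l UMIs and 51.8% of the Fam162a UMIs of the 55 cells, but 35.7% of the Higd1a UMIs, of which 152 came from cluster 0 and 134 from cluster 3. Lgals3 had 981 CPM in cluster 3 and 605 in cluster 0, and stood above the low pigment cells of cluster 1 (301 CPM) and cluster 2 (278 CPM) in both. Jun had 671 and 471 CPM, below clusters 1 and 2 (1006 and 701 CPM) and above the high pigment cells of clusters 3 and 0 (191 and 92.1 CPM). Mitf had 341 and 284 CPM, between 249 and 667 CPM for cluster 3 and between 190 and 473 CPM for cluster 0. Fos had 26.8 CPM in cluster 3, where high pigment cells had 27.4, and 83.7 CPM in cluster 0, where they had 14.1. Cluster 3 rests on 260975 UMIs, where 3 UMIs are 11.5 CPM. Against low pigment cluster 1, counting error spanned a factor of 1.46 for the median gene.

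**Figure D5:**
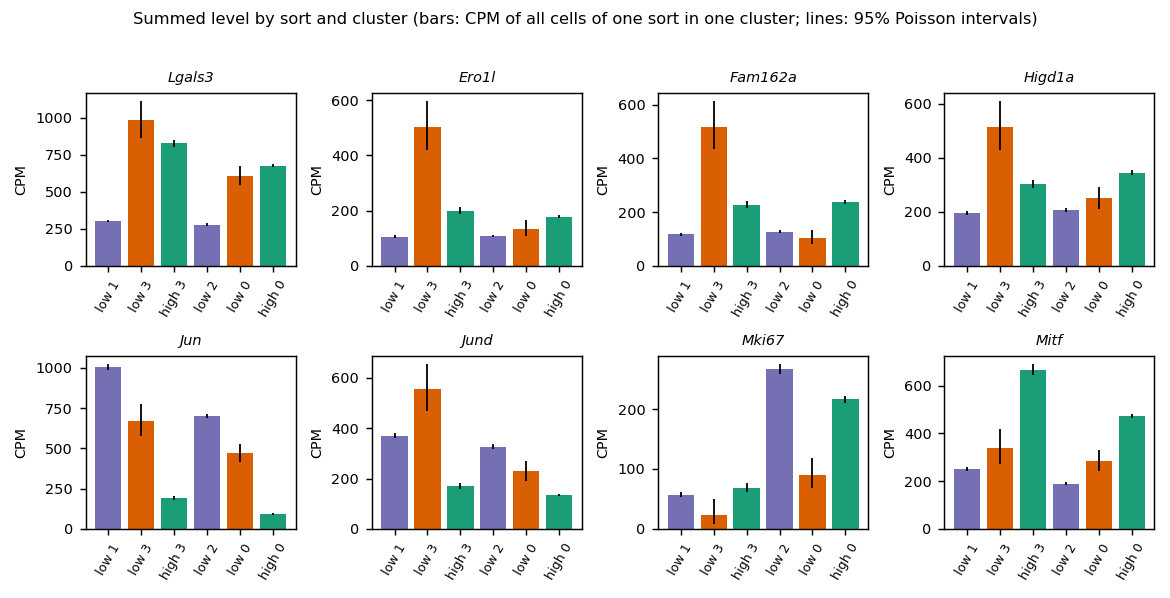
CPM of 8 genes summed over all cells of 1 sort in 1 cluster, for low pigment clusters 1 and 2 (violet), the 55 cells split into clusters 3 and 0 (orange) and high pigment clusters 3 and 0 (green), with 95% Poisson intervals as lines. Ero1l and Fam162a reached 502 and 517 CPM in the 19 cells of cluster 3, against 135 and 105 CPM in the 36 cells of cluster 0.

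Over the 55 cells, 7 fibroblast markers summed to 2 UMIs with 5 at 0, 7 leukocyte markers to 1 UMI with 6 at 0, and the keratinocyte and erythroid markers to 0 UMIs. The endothelial markers summed to 6 UMIs, or 6.89 CPM, against 23.0 CPM in the other low pigment cells and 2.12 CPM in the high pigment cells, and 5 of the 6 UMIs were Pecam1. The gene sets behind the authors' scores per cell are not stated in any source used here. Both scores named for a Pro state had lower medians in the 55 cells than in either group, 0.4707 against 0.5012 and 0.5004 for the one prefixed hMel and 0.491 against 0.508 and 0.518 for the one prefixed mHFmel. The Stem state scores lay between the groups, at 0.317 against 0.327 and 0.297 and at 0.114 against 0.148 and 0.0876. The Mat state scores did too, at 0.674 against 0.664 and 0.678 and at 0.288 against 0.283 and 0.289. These gaps were small beside the quartiles of the 55 cells, 0.637 to 0.700 and 0.251 to 0.309. In cluster 3 the hMel score was 0.660, below low pigment cluster 1 (0.670) and high pigment cluster 3 (0.674). In cluster 0 the mHFmel score was 0.286, above low pigment cluster 2 (0.268) and high pigment cluster 0 (0.283).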

How the data were processed

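A low and a high pigment fraction of B16 F10 cells gave 1 library each. The authors deposited a matrix of UMI counts per gene and barcode, for both libraries together. Cell Ranger 6.1.2 and the build mm10 are named in the submitters' processing notes. Whether joining the libraries equalised depth is not stated in any source used here. The authors' deposited cell table gives UMI counts, the percent of mitochondrial and ribosomal protein UMIs, scores, phase and cluster per cell. Its 4036 cells all had at least 7500 UMIs and under 10% mitochondrial UMIs by their values, and UMI totals differed from the matrix by at most 17.

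Counts were summed per group and scaled to CPM with no offset. The 55 cells come from the table's sort and cluster. The members and gene lists were chosen with earlier results of these data known. Genes were named by size of ratio: the top 12 and bottom 12 against the other low pigment cells and the top 10 and bottom 10 against the high pigment cells, all with a mean CPM of at least 100, from which it selects, plus Mitf, Lgals3, Jun, the melanin, lineage factor and immediate early lists, and up to 2 and 2 members of every other list. Plk2, Bnip3, Gclm, Creld2 and Pdia6 are such list members, and the 2 sets of 30 genes, the quartile counts of cells and the motif search were added after the data were seen. Ratios of such sums were checked on simulated counts with 200 genes changed 2-fold. In the first comparison 100% were recovered, and in the second 100% of the higher and 99.0% of the lower. Genes were called at a smaller ratio, for which recovery was not tested. Recovery with unequal shares of a gene's UMIs among cells, as seen for Ero1l, was not tested either. Cells were thinned without replacement (seed 1), and doublets marked with Scrublet in scanpy 1.11.5 at an expected rate of 0.06 and kept. Free RNA was not estimated. Some genes that these rules and lists pick are not reported in this text. Python 3.11.15, numpy 2.4.6, scipy 1.17.1, pandas 2.3.3 and matplotlib 3.10.9 were used. Columns of values without a known sample numbered 0. Alternatives covered weighting of cells, depth, the CPM minimum, scaling, phase, single clusters, the deepest cells, doublets and cells of like depth.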

Additional observations from a re-analysis of the deposited data

How the results depend on the processing

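Counts of genes moved most. Thinning to equal depth gave 74 higher and 122 lower genes against the other low pigment cells and 109 and 137 against the high pigment cells. A minimum of 20 CPM gave 142 and 273, and 317 and 213, and a minimum of 100 CPM gave 14 and 22, and 15 and 36. Thinning put the log2 ratio of Mitf at 0.18 and -1.05 in the first and second comparison. Weighting to equal phase shares gave 47 lower genes against the high pigment cells, a mitotic list median of -0.38 and an Lgals3 log2 ratio of -0.15.

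Cluster 0 alone gave 165 and 124 lower genes, -0.51 for the 30 low genes against low pigment cells, 1.12 and -0.16 for Lgals3, and -0.27 for Fam162a, which reversed. Cluster 3 alone gave 317 higher and 162 lower genes, then 290 and 159, a mitotic median of -0.34, 1.70 and 0.25 for Lgals3, 1.81 for Jun and -0.97 for Mitf against high pigment cells, and a median immediate early share of 0.307%. There, Eps8 reversed to -0.0532 against low pigment cells, and Fos to -0.0298 and Gadd45b to -0.85 against high pigment cells. Comparison cells of like depth gave -0.21 for the mitotic list against low pigment cells, and Prc1 reversed to 0.12. For these settings the cause was not tested.

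Leaving out the cell, or the 5 cells, with the most UMIs of a gene was chosen after seeing the data and lowers levels by construction. Without 1 cell, Lgals3 had log2 ratios of 1.18 and -0.11. Without 5 cells, Lgals3 had 0.80 and -0.49, Mitf 0.13 and -1.09, Jun -1.01 and 1.93, and Fam162a -0.00142 against low pigment cells, which reversed. The barcode alternative removed 0 cells. No paired analysis was possible because each sort has 1 library and the result comes from no test. With 55 cells, depth limits the ratios of single genes, above all in cluster 3.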
